A study of Mus musculus with 8 samples.

Results

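The large aggregating proteoglycan of cartilage, its link protein and the enzymes and transporters that build and sulfate its chondroitin chains were followed through the cell types of the adult mouse tibia. The set holds 10 of the 31053 genes in the deposited matrix: Acan, Hapln1, Xylt1, Ugdh, Csgalnact1, Chsy1, Chst11, Chst3, Papss2 and Slc26a2. They were picked by their function in the pathway, and their levels were summed over barcodes picked by the raw counts of other genes.

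Aggrecan is a core protein that carries many chondroitin sulfate chains, and link protein clamps it to hyaluronan, so that large aggregates hold water under load. Each chain is started on a xylose that a xylosyltransferase adds to a serine of the core protein, is lengthened by adding glucuronate and N-acetylgalactosamine in turn, and is then sulfated on the galactosamine at the 4 or the 6 position. Sulfate has to enter the cell through a transporter and be joined to adenosine as PAPS before a sulfotransferase can use it, and defects of these steps are known causes of skeletal dysplasia.

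Cells came from the tibiae of untreated mice at P56 (8 weeks) that carried COL10A1cre, the reporter R26-tdT, the transgene Col1a1-2.3-GFP and 1 floxed Mmp14 allele (MMP14 F/+). COL10A1cre acts in hypertrophic chondrocytes (HCs), so that tdTomato and the viral element WPRE in its transcript mark HCs and their descendants, and the 2.3 kb Col1a1 promoter drives GFP in osteoblasts. The Cre can remove the floxed allele in HCs and their descendants, and no mouse without it was analysed here. Trabecular bone, with a piece of growth plate, was digested in series, the earlier digests were discarded, and cells from 3 mice were put together. All 8 labelled samples belong to 1 group, the barcodes carry 1 common suffix and nothing ties a barcode to a sample or a mouse, so the pool was treated as 1 sample with no replicate check and no test.

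The pool held 12564 barcodes and 91463572 unique molecular identifiers (UMIs, counted transcripts). The 4472 barcodes with at least 1600 genes were used, with a median of 10451.5 UMIs and a lowest total of 3224, and 12 of them had over 20% mitochondrial UMIs. Scrublet called 332 of them (7.42%) doublets, which were kept. Erythroid genes were found in every gate, at 9966 to 41035 UMIs per 1000000 UMIs (CPM), and the part of such free RNA in the levels below was not tested. All intervals are 95% and reflect the error of counting alone, so that differences among cells and mice are not in them.

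Of these barcodes, 3736 met at least 1 of 7 gates on raw counts and 266 met several. The Col2a1 gate (at least 10 Col2a1 and at most 1 Prg4 UMI) held 243 barcodes with a median of 19589 UMIs, and the Col10a1-Ihh gate (at least 5 Col10a1 and Ihh UMIs together) held 79 with 24233. The Prg4-Cilp gate (at least 2 Prg4 and Cilp UMIs together, with Sox9) held 210 with 11731.5. These 3 are called the cartilage gates. The Bglap gate (at least 20 Bglap UMIs) held 54 with 25759.5, the Cxcl12 gate (at least 20 Cxcl12 UMIs, with at least 2 of Lepr and Adipoq) held 23 with 7733, and the Dcn-Col3a1 gate (at least 3 UMIs of each) held 164 with 10243.5. The Ptprc gate, any barcode with a UMI of this pan-leukocyte gene, held 3286 with 10049.

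Some gates hold more than their marker says. The Col10a1-Ihh gate fell almost wholly into 43 barcodes shared with the Col2a1 gate and 35 shared with the Prg4-Cilp gate. Col10a1, Ihh, Prg4 and Cilp are genes of these gates, so their levels follow in part from how the barcodes were picked. In the former Col10a1 stood at 14643 CPM, Ihh at 574 and Prg4 at 3.5. In the latter Prg4 stood at 64347 CPM, Cilp at 12599, Col10a1 at 5358 and Ihh at 19.7, so that the label of HC rests there on Col10a1 beside leading articular genes. The Bglap gate shared 25 of its barcodes with the Col2a1 gate, and growth plate marker genes summed to 46157 CPM in it. The Dcn-Col3a1 gate shared 95 barcodes with the Prg4-Cilp gate, and 44 of the Col2a1 barcodes held a Ptprc UMI. In ratios, a barcode of both gates was counted on the compared side only.

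The promoters of the core protein, its link protein and the 2 sulfotransferases are shown, because Acan and Hapln1 had nearly the same pattern over the gates and Chst11 and Chst3 had different ones. The windows run from 250 bases before to 50 after the RefSeq start (GRCm38.p6), 5′ to 3′ on the strand of the gene: Acan at chr7:79052976-79053275 (+), Hapln1 at chr13:89540386-89540685 (+), Chst11 at chr10:82985247-82985546 (+) and Chst3 at chr10:60219211-60219510 (-). Capitals mark the letters of a motif, read on either strand. A SOX core is spelled ACAAT, or ATTGT on the other strand. The TATA box searched for is TATAAA, which reads TTTATA on the other strand. A GC box is GGGCGG, and on the other strand it reads CCGCCC.
Acan: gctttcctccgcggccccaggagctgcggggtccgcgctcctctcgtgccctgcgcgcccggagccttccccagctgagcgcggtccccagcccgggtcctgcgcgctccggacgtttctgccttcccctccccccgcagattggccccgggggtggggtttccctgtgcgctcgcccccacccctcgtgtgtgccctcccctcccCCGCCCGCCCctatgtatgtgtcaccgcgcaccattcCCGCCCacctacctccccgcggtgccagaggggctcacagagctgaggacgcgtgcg
Hapln1: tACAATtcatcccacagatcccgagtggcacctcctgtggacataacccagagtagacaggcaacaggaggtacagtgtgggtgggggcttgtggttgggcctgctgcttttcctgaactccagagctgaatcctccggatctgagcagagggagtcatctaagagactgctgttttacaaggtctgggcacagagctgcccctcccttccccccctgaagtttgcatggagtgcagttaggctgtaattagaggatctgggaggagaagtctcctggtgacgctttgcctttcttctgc
Chst11: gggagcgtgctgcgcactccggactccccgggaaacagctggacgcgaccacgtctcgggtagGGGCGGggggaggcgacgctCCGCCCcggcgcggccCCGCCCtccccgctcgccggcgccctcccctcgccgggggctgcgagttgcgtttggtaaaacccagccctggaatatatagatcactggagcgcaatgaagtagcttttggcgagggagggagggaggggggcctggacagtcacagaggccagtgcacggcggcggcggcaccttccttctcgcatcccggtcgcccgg
Chst3: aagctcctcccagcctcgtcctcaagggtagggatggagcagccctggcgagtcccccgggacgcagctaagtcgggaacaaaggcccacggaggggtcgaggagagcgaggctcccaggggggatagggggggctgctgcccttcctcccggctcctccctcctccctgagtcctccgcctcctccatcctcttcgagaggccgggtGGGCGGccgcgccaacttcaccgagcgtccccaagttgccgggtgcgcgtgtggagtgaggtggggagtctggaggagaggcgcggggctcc

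The Acan, Chst11 and Chst3 windows were rich in G and C (74%, 71% and 70%) with 31, 34 and 22 CG steps, against a median of 52.7% and 7 steps over all 32851 windows of the table. Acan and Chst11 held 3 GC boxes each, the first pair in Acan overlapping, and Chst3 held 1, at 42 bases before the start. The Hapln1 window was different, with 54.3% G and C, 3 CG steps, no GC box and a single SOX core 249 bases before the start. A GC box was found in 35.7% of all windows, a SOX core in 31.0% and a TATA box in 13.6%, and none of the 4 held a TATA box. Of the 10 genes, 7 had a window in the table. Csgalnact1, Xylt1 and Slc26a2 had none there. A match describes the letters only and does not show a binding site. Only this 1 spelling of a SOX core was searched for, so other SOX-type stretches could be left unmarked in any window.

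Acan, the core protein itself, was highest in the Col10a1-Ihh gate at 5999 CPM (5891 to 6108) and in the Col2a1 gate at 5361 (5301 to 5421). It stood at 2337 in the Prg4-Cilp gate, 2173 in the Bglap gate, 928 in the Dcn-Col3a1 gate and 166 in the Ptprc gate. No Acan UMI was found among the 212646 UMIs of the Cxcl12 gate, which allows up to 14.1 CPM. No neighbouring gates in this order had overlapping intervals.

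Barcodes varied widely within most gates. In the Col2a1 gate a barcode held a median of 5351 CPM of Acan, from 0 to 13516, with quartiles at 3996 and 6762. In the Col10a1-Ihh gate the median was 5323, from 162 to 18798, and in the Prg4-Cilp gate it was 1114, from 0 to the same highest value. In the Bglap gate the median was 0 and the highest 9909, and 3187 of its 3202 Acan UMIs were in the 26 barcodes that also met a cartilage gate. The same held in the blood gate, where 6777 of 6918 Acan UMIs lay in 78 barcodes that met a cartilage gate, and the other 3208 held 3.57 CPM.

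Hapln1, the link protein, followed the same order but for 1 exchange, with the Bglap gate (2874 CPM) above the Prg4-Cilp gate (1396). Its levels were 6853 CPM (6738 to 6969) in the Col10a1-Ihh gate, 5472 (5411 to 5533) in the Col2a1 gate, 511 in the Dcn-Col3a1 gate and 155 in the Ptprc gate, with no UMI in the Cxcl12 gate. Thinned to 3000 UMIs per barcode, 94.4% of Col2a1 barcodes (90.5 to 96.8) held Acan and 94.9% (91.5 to 97.4) held Hapln1. Blood outside the cartilage gates gives the background at the same depth, and there 0.908% held Acan and 1.15% held Hapln1. Without thinning these shares were 95.5% and 96.7% in the Col2a1 gate and 3.37% and 3.55% in blood, at median depths of 19589 and 9820 UMIs.

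**Figure D1:**
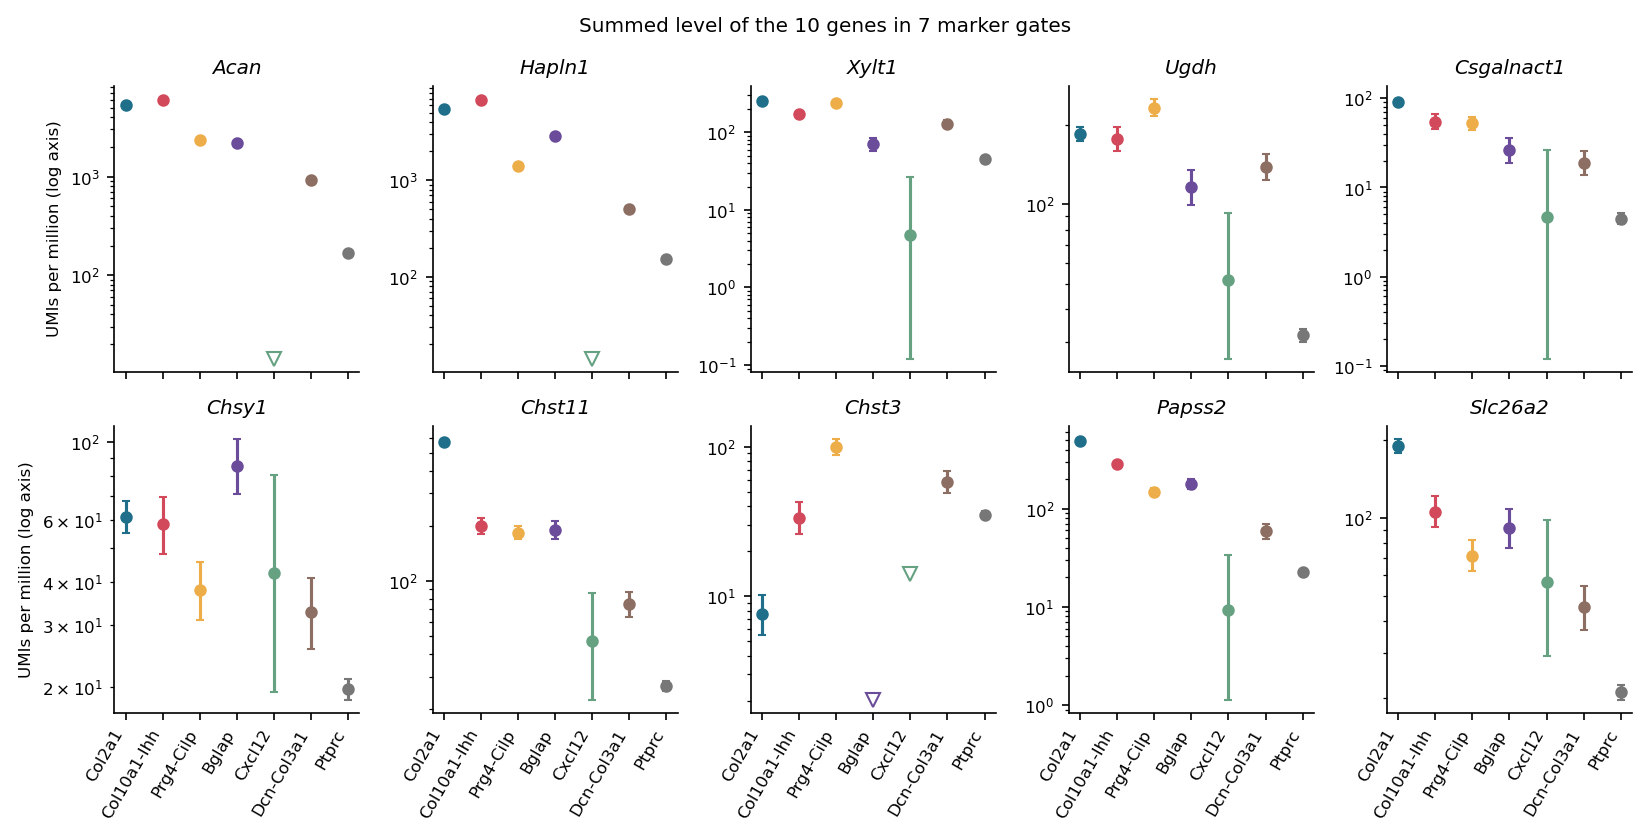
Level of each of the 10 genes in the 7 gates, in CPM on a log axis, with 95% counting intervals; an open triangle is the limit that a count of 0 allows (3 counts). Acan stands at 5361 and 5999 and Hapln1 at 5472 and 6853 in the Col2a1 and Col10a1-Ihh gates, and Chst3 is highest in the Prg4-Cilp gate at 99.6.

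**Figure D2:**
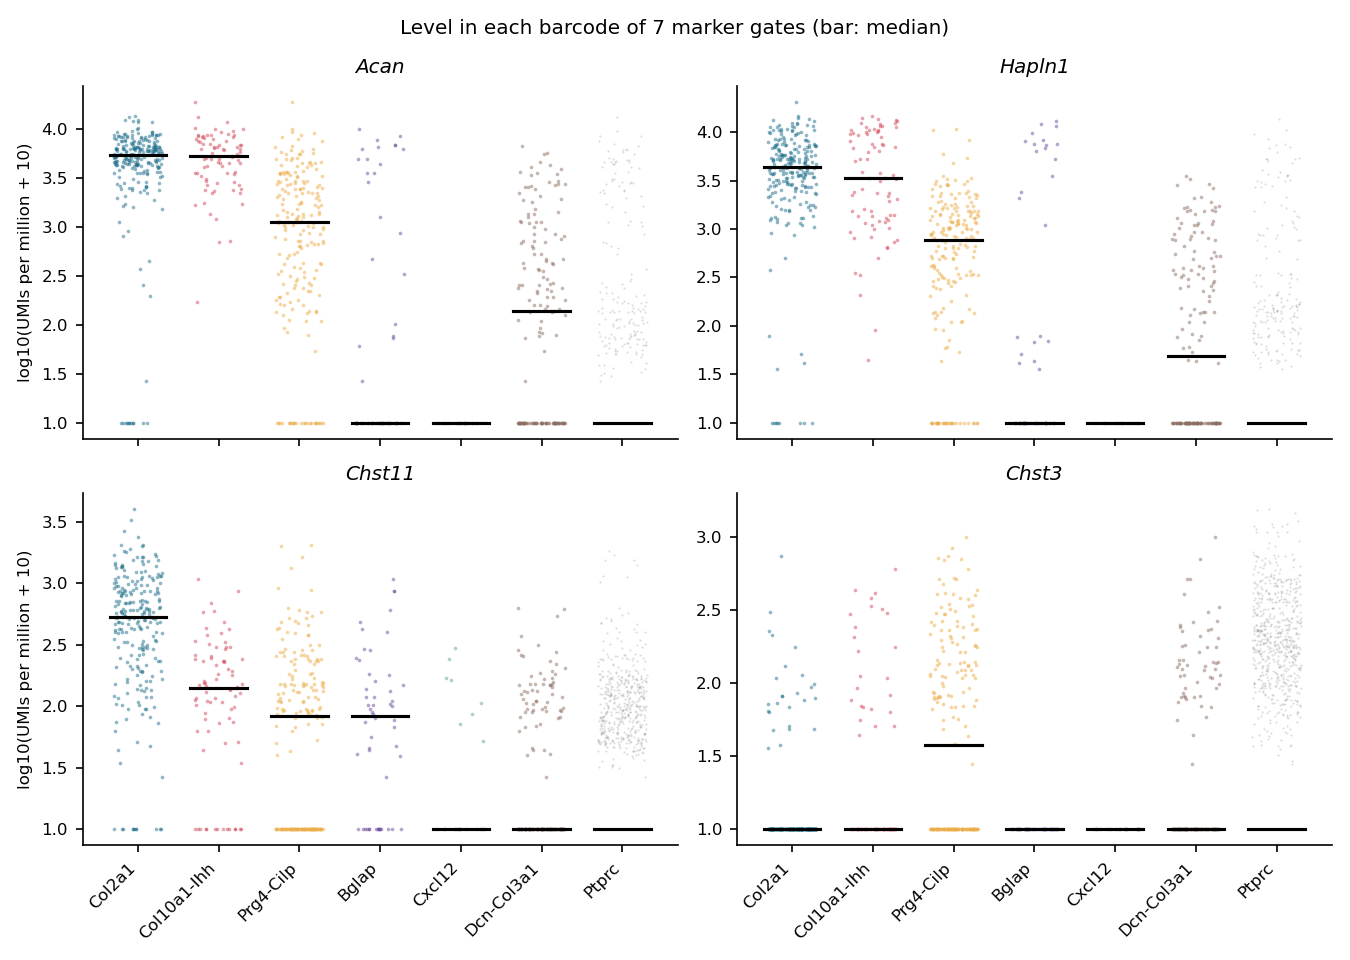
Acan, Hapln1, Chst11 and Chst3 in each barcode of the 7 gates, as log10 of CPM plus 10, 1 point per barcode and a bar at the median. Most Col2a1 barcodes lie together for Acan and Hapln1, the Bglap barcodes fall into a low and a high set, and for Chst3 the median is above 0 only in the Prg4-Cilp gate.

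Acan and Hapln1 did not keep 1 ratio through the cartilage gates. Of the UMIs of both genes, Acan made up 53.0% (52.5 to 53.5) in the Col2a1 gate outside the Col10a1-Ihh gate and 43.4% (42.8 to 44.1) in the 43 barcodes of both. It made up 59.0% in the Prg4-Cilp gate outside the Col10a1-Ihh gate and 73.6% (71.9 to 75.2) in the 35 barcodes of both. Barcodes that also met the Col10a1-Ihh gate were therefore on the Hapln1 side among Col2a1 barcodes and on the Acan side among Prg4-Cilp barcodes.

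Xylt1 encodes the xylosyltransferase that starts the linkage region on the core protein. It stood at 255 CPM (242 to 269) in the Col2a1 gate and 238 (220 to 256) in the Prg4-Cilp gate, 2 levels whose intervals overlapped. It was lower in the Col10a1-Ihh gate at 171, in the Dcn-Col3a1 gate at 130 and in the Bglap gate at 70.6. Blood held 45.9 CPM, and blood outside the cartilage gates still held 38.3, so Xylt1 was not limited to cartilage gates.

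Ugdh makes the UDP-glucuronate from which glucuronate residues are added, and it had the flattest profile of the 10 genes across the gates outside blood and marrow stroma. Its highest level was in the Prg4-Cilp gate, 233 CPM (215 to 251), followed by the Col2a1 gate at 185 and the Col10a1-Ihh gate at 177, 2 levels whose intervals overlapped. The Dcn-Col3a1 gate at 139 and the Bglap gate at 116 also had overlapping intervals. A few barcodes were far above the rest, with 1 of the Prg4-Cilp gate at 3715 CPM against a median of 125.

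Csgalnact1, which adds the first galactosamine of a chondroitin chain, was sparse, at 89.9 CPM (82.3 to 98.1) in the Col2a1 gate. It stood at 54.7 in the Col10a1-Ihh gate, 52.6 in the Prg4-Cilp gate, 26.5 in the Bglap gate and 4.47 in blood. Chsy1, a synthase that lengthens the chain, was the only gene of the set with its highest level in the Bglap gate, 85.5 CPM against 61.3 in the Col2a1 gate, with a log2 ratio to the rest of that gate of 0.61 (0.30 to 0.93). The 28 Bglap barcodes outside the cartilage gates held 78.3 CPM (56.7 to 106) on 43 UMIs, an interval that overlapped that of the Col2a1 gate (55.0 to 68.1). Col2a1 was at 58.3 CPM and Sox9 at 10.9 in these 28. Both are genes of the cartilage gates, so low levels follow in part from leaving those gates out.

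Chst11 transfers sulfate to the 4 position of galactosamine in chondroitin. Its level in the Col2a1 gate was 572 CPM (552 to 592), above every other gate. The Col10a1-Ihh gate at 200 (181 to 221), the Bglap gate at 190 (168 to 214) and the Prg4-Cilp gate at 184 (169 to 200) came next, with overlapping intervals. The Dcn-Col3a1 gate held 74.6, the Cxcl12 gate 47.0 on 10 UMIs and blood 26.7. Of the 1110 Chst11 UMIs of blood, 595 lay in barcodes that met a cartilage gate. At 3000 UMIs per barcode, Chst11 was seen in 71.1% of Col2a1 barcodes (65.1 to 76.8), 37.0% of Col10a1-Ihh barcodes, 26.1% of Prg4-Cilp barcodes and 4.62% of blood barcodes.

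Chst3, which transfers sulfate to the 6 position instead, had another pattern. Its level was 7.60 CPM (5.50 to 10.2) in the Col2a1 gate, 33.4 (25.9 to 42.5) in the Col10a1-Ihh gate and 99.6 (88.5 to 112) in the Prg4-Cilp gate. The Dcn-Col3a1 gate held 58.3 (48.8 to 69.1) and blood 35.1 (33.3 to 37.0). No Chst3 UMI was found in the Bglap gate, which allows up to 2.04 CPM, or in the smaller Cxcl12 gate. The share of barcodes with a Chst3 UMI at 3000 UMIs was 2.99% (1.17 to 5.84) in the Col2a1 gate and 22.9% (17.4 to 29.1) in the Prg4-Cilp gate, and 10.7% and 51.0% without thinning.

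Papss2, which makes PAPS, stood at 488 CPM (470 to 507) in the Col2a1 gate, 284 (261 to 308) in the Col10a1-Ihh gate, 180 (159 to 203) in the Bglap gate and 149 (135 to 163) in the Prg4-Cilp gate. Slc26a2, the sulfate transporter of chondrocytes, stood at 190 (179 to 202), 106 (92.0 to 121), 91.6 (76.8 to 108) and 71.5 (62.1 to 81.8) in the same gates. Both were lower in blood, at 22.4 and 21.1, and Papss2 stood at 59.2 in the Dcn-Col3a1 gate. In the Cxcl12 gate, Slc26a2 was seen 12 times and Papss2 2 times.

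Against blood, the Col2a1 gate was at least 2-fold higher in 9 of the 10 genes, where 21.1% of the 12249 genes with at least 50 UMIs in both gates together were. The log2 ratios ran from 1.79 for Chsy1 and 2.64 for Xylt1 to 5.52 for Papss2, 7.68 for Acan and 8.68 for Hapln1. Blood here still held barcodes of the other cartilage gates, and without them the ratios of Acan and Hapln1 were 10.55 and 10.58. Chst3 was the exception and stood 2.24 log2 units below blood (-2.24, interval -2.71 to -1.80), where 29.1% of all genes were at least 2-fold lower. This direction depended on which blood barcodes were counted, since Chst3 was at 7.60 CPM in the Col2a1 gate, at 138 in blood barcodes with Cd79a and at 1.36 in those without. The median over the 10 genes was 4.38, against -0.29 over all genes tested.

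The Col10a1-Ihh gate differed from the rest of the Col2a1 gate in 3 genes by at least 2-fold. Chst11 was lower, with a log2 ratio of -1.78 (-1.93 to -1.63), and Slc26a2 at -1.03 (-1.25 to -0.81) lay just past the threshold, where 10.2% of 7990 genes were as much lower. Papss2 at -0.93 and Csgalnact1 at -0.90 lay just inside it. Chst3 was higher, at 1.93 (1.33 to 2.55), where 4.82% of genes were as much higher. Acan was higher by 0.30 (0.27 to 0.34) and Hapln1 by 0.67 (0.64 to 0.70), and the interval of Chsy1, -0.35 to 0.30, held 0.

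That mean over the gate covers unlike barcodes. In the 43 barcodes shared with the Col2a1 gate, Hapln1 was 1.05 (1.02 to 1.08) above the rest of the Col2a1 gate, where 5.00% of genes were at least 2-fold higher. Chst11 (-1.55) and Xylt1 (-1.11) were at least 2-fold lower, where 14.7% of genes were. Chst3 was at 4.17 CPM there on 6 UMIs, against 8.76 CPM in the other Col2a1 barcodes, and the interval of the log2 ratio, -2.61 to 0.19, held 0.

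The 35 Col10a1-Ihh barcodes shared with the Prg4-Cilp gate were different from those 43. Chst3 stood at 116 against 4.17 CPM, a log2 ratio of 4.80 (3.59 to 6.30), and Ugdh at 353 against 115, a ratio of 1.61 (1.30 to 1.93), where 11.9% of 4030 genes were at least 2-fold higher. Hapln1 (-2.66), Papss2 (-1.30), Chst11 (-1.09) and Chsy1 (-1.01) were at least 2-fold lower, where 16.4% of genes were. The median depth of these barcodes was 12856 UMIs against 32457. Set against the rest of the Prg4-Cilp gate instead, they differed by 2-fold in none of the 10 genes, where 2.87% of 5887 genes were at least 2-fold higher and 11.4% lower. The widest ratios were 0.97 for Acan, 0.77 for Ugdh and -0.85 for Chst11.

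In the Prg4-Cilp gate, Acan, Hapln1, Chst11, Papss2 and Slc26a2 were at least 2-fold lower than in the rest of the Col2a1 gate, where 7.04% of 9001 genes were. Their log2 ratios were -1.20 for Acan, -1.98 for Hapln1, -1.60 for Chst11, -1.70 for Papss2 and -1.41 for Slc26a2. Chst3 was 14.8-fold higher, a log2 ratio of 3.89 (3.38 to 4.43), where 9.73% of genes were at least 2-fold higher. Ugdh was higher by 0.39 (0.25 to 0.54), and the interval of Xylt1, -0.21 to 0.06, held 0. Without the barcodes that also met the Dcn-Col3a1 gate, Acan was at -0.77, short of 2-fold, and the other 4 lower genes lay between -1.11 and -1.48. The median over the 10 genes was -0.98, against 0.06 over all genes.

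This gate was then split by the Dcn-Col3a1 gate. Dcn was not low outside that gate, at 7945 CPM in the 55 barcodes of the Prg4-Cilp gate alone. The 95 Prg4-Cilp barcodes that also met the Dcn-Col3a1 gate had at least 2-fold less Acan (1322 against 3134 CPM), Hapln1, Csgalnact1, Chst11 and Papss2 than the other 115, where 3.62% of genes were as much lower. Chst3 stood at 89.8 against 107 CPM, and the interval of its log2 ratio, -0.61 to 0.09, held 0. Chsy1 had an interval that held 0 as well (-1.18 to 0.01), and Xylt1 (-0.50), Ugdh (-0.88) and Slc26a2 (-0.72) were lower by less than 2-fold.

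**Figure D3:**
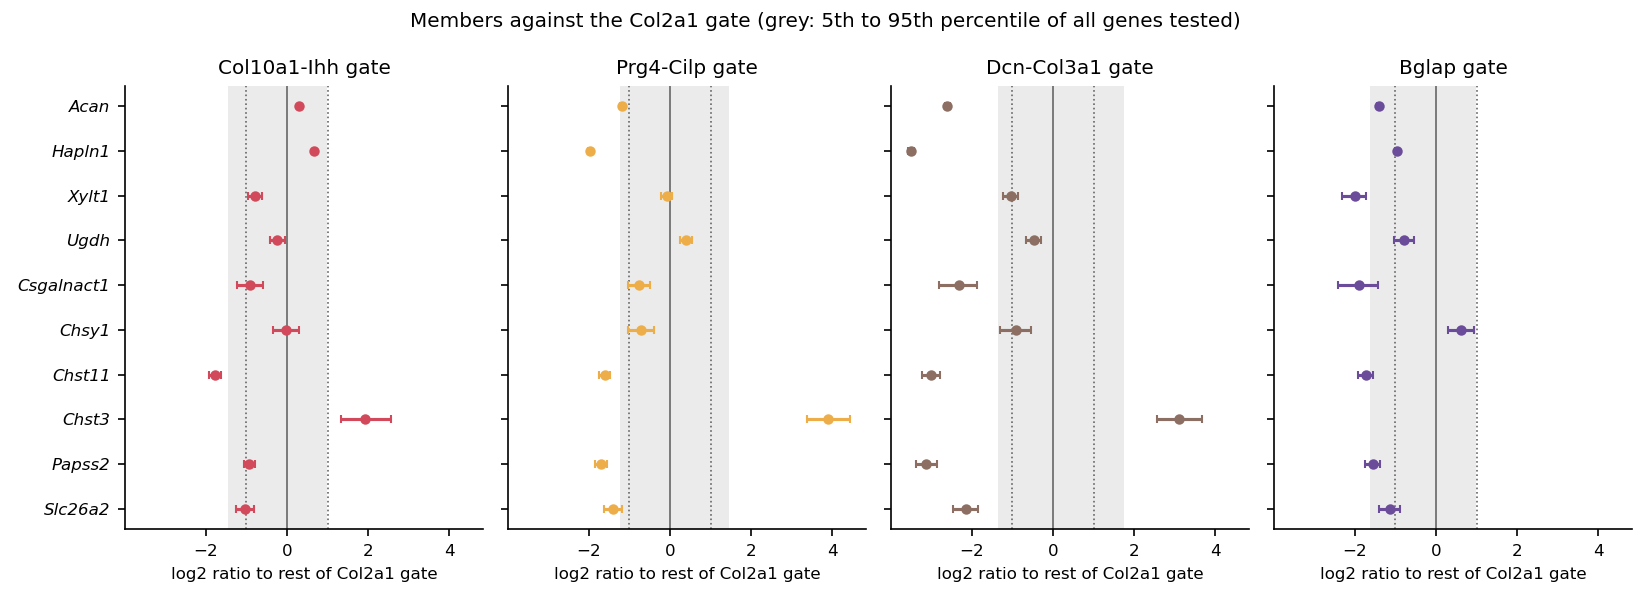
Log2 ratio of each gene in the Col10a1-Ihh, Prg4-Cilp, Dcn-Col3a1 and Bglap gates to the rest of the Col2a1 gate, with 95% counting intervals; the grey band spans the 5th to 95th percentile of all genes tested and dotted lines mark 2-fold. Chst3 lies above the band in the Col10a1-Ihh, Prg4-Cilp and Dcn-Col3a1 gates, with 1.93 and 3.89 in the first pair, and had no UMI in the Bglap gate.

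The Dcn-Col3a1 gate was at least 2-fold lower than the rest of the Col2a1 gate in 7 of the 10 genes, where 8.24% of 8871 genes were, from -1.04 for Xylt1 to -3.50 for Hapln1. Chst3 was again higher, 8.58-fold (log2 interval 2.56 to 3.68), where 11.9% of genes were at least 2-fold higher. Most of this lay in the barcodes shared with the Prg4-Cilp gate. The 56 Dcn-Col3a1 barcodes outside the cartilage gates held 9 Chst3 UMIs (14.6 CPM) and 31 Acan UMIs (50.1 CPM), with Ugdh at 128 CPM. Without the cartilage-gate barcodes the log2 ratio of Chst3 was 0.94, short of 2-fold.

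The Bglap gate was at least 2-fold lower in 6 of 9 genes tested, where 13.6% of 7998 genes were: Acan, Xylt1, Csgalnact1, Chst11, Papss2 and Slc26a2. Its 26 barcodes in a cartilage gate were at least 2-fold above the 28 others in 6 of 8 genes tested, where 11.7% of 3172 genes were. Acan was at 3446 against 27.3 CPM, Hapln1 at 4568 against 18.2, Papss2 at 277 against 16.4 and Chst11 at 266 against 61.9. Ugdh (110 against 126) and Chsy1 (89.7 against 78.3) had ratios whose intervals held 0. Bglap barcodes outside the cartilage gates thus still held Ugdh, Chsy1 and Chst11, with little Acan or Hapln1.

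The Cxcl12 gate of marrow stromal barcodes was at least 2-fold lower in 8 of 9 genes tested, where 19.8% of 7982 genes were. Acan was at least 380-fold lower and Hapln1 at least 388-fold lower, counting 3 UMIs in the gate. Slc26a2 (56.4 CPM), Ugdh (51.7), Chst11 (47.0) and Chsy1 (42.3) were seen on 9 to 12 UMIs each. These 23 barcodes carry the widest intervals of the 7 gates.

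**Figure D4:**
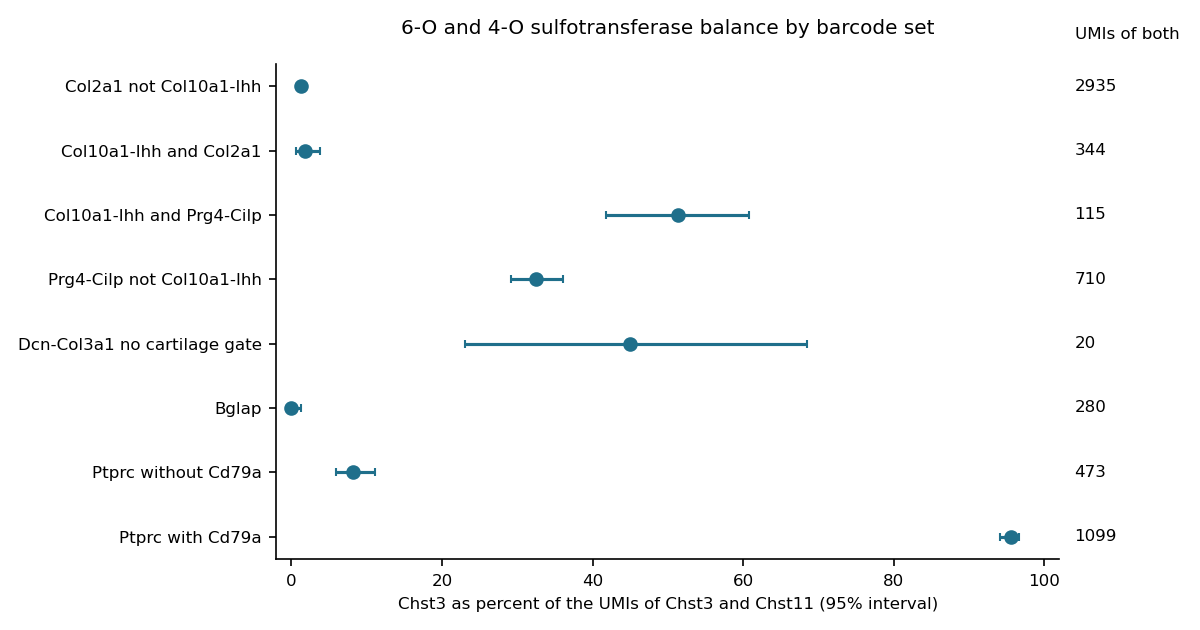
Chst3 as a percentage of the UMIs of Chst3 and Chst11 in sets of barcodes, with exact 95% intervals and the UMIs of both genes at the right. The share is 1.26% in Col2a1 barcodes outside the Col10a1-Ihh gate, 1.74% and 51.3% in the Col10a1-Ihh barcodes of the Col2a1 and the Prg4-Cilp gate, 0 in Bglap barcodes and 95.5% in Ptprc barcodes with Cd79a.

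The balance of these 2 sulfotransferase transcripts was followed as the share of Chst3 among the UMIs of Chst3 and Chst11. Other sulfotransferase genes are not in this share. Chst12, for 1, had 312 UMIs in the Col2a1 gate, 159 in the Col10a1-Ihh gate and 193 in the Prg4-Cilp gate. It had 125 in the Dcn-Col3a1 gate, 58 in the Bglap gate and 1053 in the Ptprc gate. It was 1.31% (0.951 to 1.76) in the Col2a1 gate, 14.3% (11.2 to 17.9) in the Col10a1-Ihh gate, 35.2% (31.9 to 38.5) in the Prg4-Cilp gate and 43.9% (38.2 to 49.7) in the Dcn-Col3a1 gate. The Col10a1-Ihh gate was a mixture, at 1.74% (0.643 to 3.76) in its Col2a1 barcodes and 51.3% (41.8 to 60.7) in its Prg4-Cilp barcodes. Without the barcodes that held a Ptprc UMI, the share in the Prg4-Cilp gate was 33.8% (30.1 to 37.6). The Dcn-Col3a1 gate was at 50.2% (43.6 to 56.9) in its Prg4-Cilp barcodes and 23.6% (14.4 to 35.1) in the others. The latter held 72 UMIs of both genes and included barcodes of the other cartilage gates. In the 56 Dcn-Col3a1 barcodes outside all cartilage gates, the share was 9 of 20 UMIs. Its interval, 23.1% to 68.5%, overlapped both, so a lower share outside the cartilage gates was not shown. In the Bglap gate it was 0 of 280 UMIs, with an upper limit of 1.31%. Of these UMIs 246 lay in barcodes that met a cartilage gate, and the others gave 0 of 34, with an upper limit of 10.3%. Single barcodes of the Prg4-Cilp gate often held both transcripts, 70 of 210 at full depth, against 23 of 243 in the Col2a1 gate.

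Most Chst3 UMIs of blood lay in barcodes with a B cell gene. Among Ptprc barcodes outside the cartilage gates, 661 had at least 5 UMIs of Cd79a, a part of the B cell receptor, a split that was made after the values were seen. They held 1050 of 1367 Chst3 UMIs, 138 CPM (130 to 146), and 67.3% of them had a Chst3 UMI. The 2248 without any Cd79a UMI held 39 Chst3 UMIs, 1.36 CPM. The log2 ratio was 6.66 (6.20 to 7.16) for Chst3 and 2.51 (1.78 to 3.27) for Csgalnact1, where 18.0% of 11120 genes were at least 2-fold higher. Papss2 (-2.24) and Chst11 (-1.24) were lower, where 15.3% of genes were.

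Dntt marks early and Ms4a1 later B cells, and Chst3 was found in both kinds of Cd79a barcode. It stood at 129 CPM (109 to 153) with Dntt, 159 (142 to 176) with Ms4a1 and no Dntt and 130 (119 to 141) with neither, and the intervals of the last pair did not overlap. The share of Chst3 among the UMIs of Chst3 and Chst11 was 95.5% (94.1 to 96.7) with Cd79a and 8.25% (5.93 to 11.1) without. Barcodes with the neutrophil genes Camp and Ngp held 11.5 CPM of Chst3, those with Csf1r of the monocyte lineage held 5.55, and 32 with Cd3e of T cells held none. These sets can share barcodes with the Cd79a set. Papss2 was at 24.3 CPM in the 319 Csf1r barcodes.

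**Figure D5:**
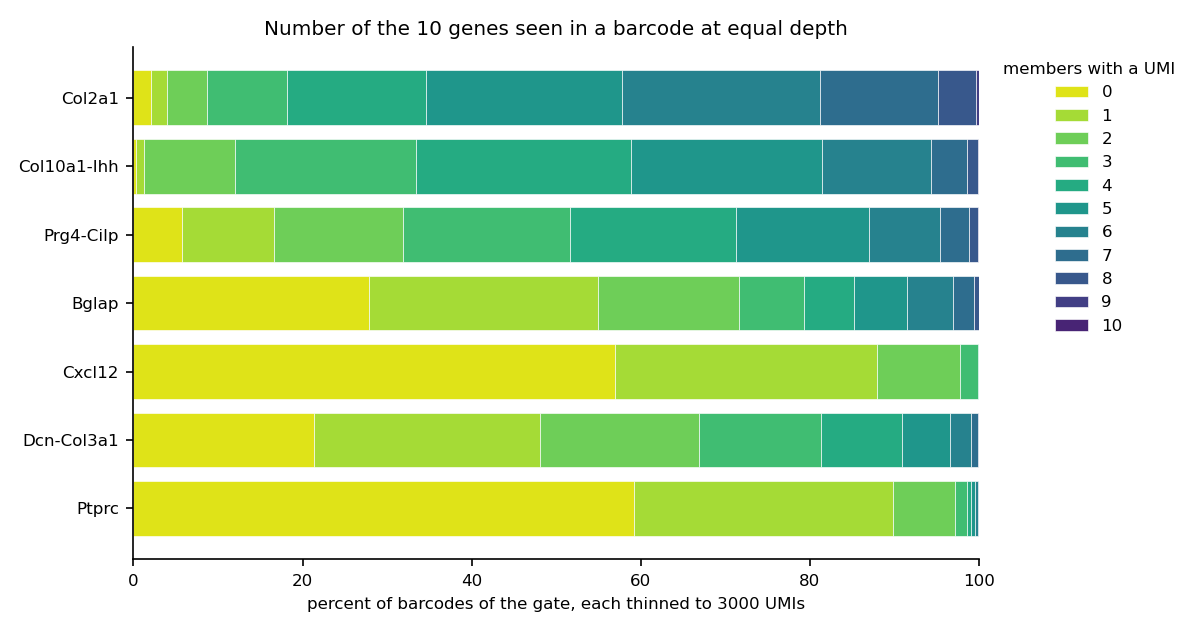
Percentage of barcodes in each gate by how many of the 10 genes they held a UMI of, after thinning to 3000 UMIs. The mean falls from 4.99 genes in the Col2a1 gate to 0.568 in the Ptprc gate.

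The genes were also counted within single barcodes. At 3000 UMIs, a barcode held a mean of 4.99 of the 10 genes in the Col2a1 gate and 3.42 in the Prg4-Cilp gate. The mean was 1.96 in the Dcn-Col3a1 gate, 1.93 in the Bglap gate, 0.575 in the Cxcl12 gate and 0.568 in blood. At least 5 genes were held by 65.4%, 41.2% and 28.7% of barcodes in the 3 cartilage gates and by 0.902% in blood. Together the 10 genes made up 1.27% of all UMIs in the Col2a1 gate and 1.39% in the Col10a1-Ihh gate. Without Acan and Hapln1, the remaining 8 summed to 1849 CPM in the former and 1085 CPM in the latter.

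Barcodes with more than 14 WPRE UMIs were taken as WPRE-high, the mark of HC descent. In the Col2a1 gate, 27 such barcodes were compared with 216 others, and 6 of 9 genes tested were at least 2-fold lower, where 15.7% of 7678 genes were. Chst11 had the widest ratio at -2.25 (-2.53 to -1.97), with Csgalnact1 at -1.66, Papss2 at -1.38, Xylt1 at -1.31, Slc26a2 at -1.27 and Ugdh at -1.10. Acan was higher by 0.45 and Hapln1 by 0.69. Of these 27 barcodes, 21 also met the Col10a1-Ihh gate, against 22 of the 216, and 6 of the 27 met the Bglap gate against 19 of the 216. No Acan or Hapln1 UMI was found in 5 of the 27 and 2 of the 216. Origin therefore cannot be told apart here from the share of hypertrophic and osteoblast barcodes.

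Within the Col10a1-Ihh gate, 45 WPRE-high barcodes had at least 2-fold less Chsy1 (-1.60) and Chst11 (-1.14) than 34 others, where 4.17% of 4097 genes were as much lower. The Prg4-Cilp gate was met by 24 of the 45 and by 11 of the 34, and Chsy1 and Chst11 were also lower in the Col10a1-Ihh barcodes of that gate. In the Bglap gate, Papss2 (-2.09), Xylt1 (-1.85) and Chst11 (-1.48) were at least 2-fold lower of 8 genes tested in 17 WPRE-high barcodes, where 7.72% of 3172 genes were, and 6 of the 17 met the Col2a1 gate against 19 of the 37 others. In the Prg4-Cilp gate none of the 10 genes passed 2-fold in 30 WPRE-high barcodes, where 2.80% of genes were at least 2-fold higher and 12.8% lower. Acan, at 4027 against 2015 CPM, was just under it. Of these 30 barcodes, 24 met the Col10a1-Ihh gate against 11 of the 180 others. The Dcn-Col3a1 gate was met by 5 of the 30 and by 90 of the 180.

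Cycling barcodes were compared last. In 45 Col2a1 barcodes with at least 2 of 3 cycling genes (Top2a, Mki67, Birc5), none of 9 genes tested passed 2-fold against the other 198, where 8.18% of 7678 genes were at least 2-fold higher and 5.42% lower. The cycling barcodes were deeper, with a median of 29721 against 18290 UMIs. Slc26a2 was higher by 0.62 (0.43 to 0.80) and Hapln1 lower, at -0.57 (-0.61 to -0.53).

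The other genes of the pathway were taken from a list of 41. Of 34 tested between the Col2a1 gate and blood, 26 were at least 2-fold higher, beside 21.1% of all genes, and 3 were lower, beside 29.1%, with a median log2 ratio of 1.89 against -0.29 over all genes. The highest were Hapln3, another link protein (6.20), Sox9 and Sox5, which activate cartilage genes (5.79 and 5.65), Chpf, the partner of the polymerase (4.56), and Has2, a hyaluronan synthase (4.36). The lowest were the proteoglycan Vcan (-3.78), the hyaluronan receptor Cd44 (-1.75), the sulfotransferase Chst13 (-1.15), the PAPS transporter Slc35b3 (-0.68) and Csgalnact2 (0.07). Sox9 is also a gene of the Prg4-Cilp gate. A list of 12 heparan sulfate genes, which share the linkage region, had 4 of 11 tested higher and 1 lower, with a median of 0.79.

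Between the Prg4-Cilp gate and the rest of the Col2a1 gate, 6 of 30 tested pathway genes were at least 2-fold higher, beside 9.73% of all genes, and 3 were lower, beside 7.04%. Versican, the large proteoglycan of soft tissues, was at 226 against 1.31 CPM (log2 ratio 7.43). Has1 (3.26), Csgalnact2 (1.53), the aggrecanase Adamts5 (1.43), Has2 (1.12) and the epimerase Dse (1.02) were also higher. The linkage enzyme B3galt6 (-1.56) and the transporters Slc35b2 (-1.11) and Slc35d1 (-1.03) were lower. Vcan (260 CPM), Has1 (109), Dse (53.0) and Adamts5 (177) were also at least 2-fold higher in the Dcn-Col3a1 gate, which shared 95 of the 210 barcodes, and the part of fibroblast barcodes in these ratios was not tested. Csgalnact2 stood opposite to its paralogue Csgalnact1, which was at -0.75 in the same comparison.

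For the Col10a1-Ihh gate, 3 of 29 tested pathway genes were at least 2-fold higher, beside 4.82% of all genes, and 5 were lower, beside 10.2%. Vcan (6.17), Ugp2, which makes UDP-glucose (1.63), and Has1 (1.58) were higher. Ust (-3.18, on 3 UMIs in the gate), Hapln3 (-1.87), B3galt6 (-1.58), Chst15 (-1.53) and Sox5 (-1.14) were lower. The 168 Vcan UMIs of this gate lay nearly all outside its Col2a1 barcodes, since the Col2a1 gate as a whole held 7.

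Likeness of pattern was measured as Pearson's r of log2(CPM + 10) over the 7 gates among 10500 genes, as a description, since the gates overlap and come from 1 pool. Hapln1 ranked second for Acan (r = 0.990), after 3110079O15Rik (0.997) and before Fdps, Tm2d1 and Morn2. The collagen IX genes Col9a3 (0.996) and Col9a2 (0.992) were among the first 3 for Hapln1, with 3110079O15Rik, but none of these 3 remained with a pseudocount of 1. Between Chst3 and Chst11, r was -0.10. Chst11 was near Csgalnact1 (0.953), Slc26a2 (0.952) and Papss2 (0.946).

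For Chst11 the nearest of all genes were Pkdcc, BC022687 and Pdrg1, and for Chst3 they were Hagh, Hdac9 and Cyp27a1. Xylt1 was nearest to Ier2, Sox6 and Tubb6, and Ugdh to Mgp, Tiam2 and Slc39a14. The nearest were Cda, Srpr and BC022687 for Csgalnact1 and Pdzd11, Wnt4 and Mydgf for Chsy1. They were Gramd2, Il11 and AC160336.1 for Papss2 and Eny2, Nek1 and Slc35e3 for Slc26a2. Of the 32 places in these lists, some of which hold the same gene, 14 remained with a pseudocount of 1, so most of these neighbours depend on that choice.

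Each gene is protein-coding in the annotation (GRCm38, the assembly of mm10), with values counted over its transcripts by the authors. Acan lies at chr7:79053483-79115099, Hapln1 at chr13:89539796-89611652, Xylt1 at chr7:117380979-117673580 and Ugdh at chr5:65413221-65435949. Csgalnact1 lies at chr8:68356781-68735146, Chsy1 at chr7:66109515-66173798 and Chst11 at chr10:82985498-83195900. Chst3 lies at chr10:60181532-60219260, Papss2 at chr19:32595790-32667187 and Slc26a2 at chr18:61192919-61211612. Ugdh overlaps Gm43552 on its own strand, so reads of these genes could be split or dropped. Csgalnact1, Chsy1 and Chst11 overlap genes on the other strand.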

How the data were processed

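Single-cell libraries (10x Genomics) of the P56 tibia were aligned by the authors to mm10 and to exogenous sequences with Cell Ranger 3.1.0, and Seurat 3 is named in the submitters' notes. For the annotation, no release was given in the sources used here. The deposited values are raw UMI counts per gene and barcode, with no normalization. WPRE counts came from the exogenous matrix, matched by barcode. From 12564 barcodes, those with at least 1600 genes (the study's floor) were kept, with no mitochondrial limit. Depth ran from 3224 UMIs upwards. Called doublets (Scrublet in scanpy 1.11.5, expected rate 6%) were kept.

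UMIs were summed over the barcodes of each gate and given per 1000000 UMIs (CPM) with exact Poisson intervals, shares with exact Clopper-Pearson intervals and log2 ratios with exact conditional intervals (scipy 1.17.1). For shares at equal depth, barcodes were thinned to 3000 UMIs without replacement and averaged over 100 draws. Where no UMI was seen, the limit that 3 counts allow is given. A gene was called at a 2-fold ratio where both groups summed to 50 UMIs or more. With 1 pool, no p-value was computed. The steps were tested on simulated data.

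All 10 genes are named. Of the other pathway genes, those named are the 5 highest and 5 lowest ratios of the Col2a1 to the Ptprc gate and any past 2-fold between the Col10a1-Ihh or Prg4-Cilp gate and the Col2a1 gate. For each of the 10 genes, the 3 of most similar pattern (5 for Acan) are named. Impad1 was used for Bpnt2. The genes, gates and lists were chosen with earlier results of these data known. Alternatives changed the gene floor, mitochondrial limit, doublets, barcode overlap, weighting, totals, gate thresholds, fold, count minimum, thinning depth and WPRE limit.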

Additional observations from a re-analysis of the deposited data

Results flagged for a closer look

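Signals in barcodes that the comparisons did not use were looked for. In 20 barcodes below the floor of 1600 genes that met the Col2a1 gate, 254 Acan UMIs were counted, 3787 CPM, and their median mitochondrial share was 27.4%. In the 736 barcodes at the floor that met no gate, 306 Chst3 UMIs were counted, 34.7 CPM, of which 210 lay in the 166 barcodes with at least 5 Cd79a UMIs (123 CPM).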

How the results depend on the processing

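Alternatives were run for the comparisons between gates and for the WPRE comparison in the Col10a1-Ihh gate, and not for the other splits of gates. The Acan and Hapln1 ratios of the Cxcl12 gate, with no UMI there, had no value to follow. Of the other 41 ratios past 2-fold in these comparisons, each kept its sign under every alternative that gave it a value. Among them, 6 fell short of 2-fold under 1 alternative each. Against the Col2a1 gate, Slc26a2 was at -0.99 in the Col10a1-Ihh and -0.95 in the Bglap gate when marker, collagen and globin genes were left out of the totals, Xylt1 at -0.89 in the Dcn-Col3a1 gate at a floor of 2500 genes, Acan at -0.77 in the Prg4-Cilp gate without Dcn-Col3a1 barcodes and Chst3 at 0.94 in the Dcn-Col3a1 gate without cartilage-gate barcodes. Chst11 was at -0.85 in the WPRE comparison with thresholds doubled. Of 130 alternative values of the main counts and shares, 12 moved. Among single genes, 218 of 730 alternative CPM values, 157 of 694 log2 ratios and 78 of 660 percentages moved out of the interval of the value reported. Of the 10 genes, 1 was higher in the Col10a1-Ihh than in the Col2a1 gate, and 2 at a fold of 1.5. Over all 7990 genes tested these were 385 and 888. Of the 10, 2 were lower there, with 1 under the same totals and 4 with gate thresholds doubled. At folds of 1.5 and 3 there were 5 and 1. Over all genes, 814 were lower, with 1730 at a fold of 1.5 and 357 at 3. At a fold of 3, 3 of the set rather than 5 were lower in the Prg4-Cilp gate and 3 rather than 6 in the Bglap gate. Over all genes these were 307 rather than 634 and 438 rather than 1085. The WPRE comparison in the Col10a1-Ihh gate had 2 of the 10 past the fold in either direction, both lower. There was 1 when thresholds were doubled, 5 at a fold of 1.5, 1 at a fold of 3 and 4 with more than 19 WPRE UMIs. For that comparison, the count over all genes was not made under the alternatives. The thinned share of Col2a1 barcodes with Acan, 94.4%, was 99.6% without barcodes of several gates.

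Over all genes, the count higher in the Col2a1 than in the Ptprc gate was 2590, with 3335 at a fold of 1.5, 1876 at 3 and 3326 with a minimum of 20 UMIs. The count lower in the Bglap gate was 1085, with 2170, 438 and 1699 under these and 785 to 1847 under the others. The alternatives that left cartilage-gate barcodes out of the Bglap, Dcn-Col3a1 and Ptprc gates, and Dcn-Col3a1 barcodes out of the Prg4-Cilp gate, were chosen after seeing the data. Leaving out barcodes of several gates emptied the Col10a1-Ihh gate, so no value was had there. The cause of the values that moved was not tested. No paired analysis was possible because the labelled samples are 1 group in 1 pool. Depth limits Chst3, seen on 43 UMIs in the Col2a1 gate, and every gene in the Cxcl12 gate.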
